A study of Homo sapiens with 148 samples.

Results

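The 9 genes described here carry the steps by which a pancreatic β-cell takes up glucose, phosphorylates it, turns its metabolism into an electrical signal and stores insulin: SLC2A1, SLC2A2, SLC2A3, HK1, HK2, G6PC2, ABCC8, SLC30A8 and UCN3. They were taken by name from a table of 49085 gene names, in which each of the 9 has a single entry, and were followed across 6 stages of the differentiation of H9 human embryonic stem cells (hESCs), an established line labelled as wild type, into pancreatic islet organoids. The stages were undifferentiated hESCs, definitive endoderm (DE, collected at day 4), primitive gut tube-like cells (PGT, day 7), pancreatic progenitors (PP, day 14) and, at day 35, islet-like organoids named for the β-cells they are meant to hold (SC-β organoids), and a stage labelled PH, which neither the labels nor the study's text defines and which stands between PP and SC-β in the table. All stages after hESCs had received the pancreatic differentiation treatment, a stepwise series of media with Activin A, CHIR99021 and Y27632, then KGF, then KGF with retinoic acid, Sant1, LDN193189 and PdBU, then retinoic acid, Sant1, the γ-secretase inhibitor XXI, betacellulin, Alk5i II and T3, and at last Alk5i II and T3 alone. Each stage had received only the media up to its day of collection. The labels list 2 RNA-seq samples at each stage, 12 among the 148 samples of the series.

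Glucose enters cells through facilitative transporters of the SLC2A family and is trapped by hexokinases as glucose-6-phosphate. Mature β-cells keep the high-affinity hexokinases low. G6PC2 returns glucose-6-phosphate to glucose. ATP made from glucose closes the KATP channel, built from the pore protein KCNJ11 and the sulfonylurea receptor ABCC8, which opens calcium channels and releases insulin granules. SLC30A8 carries the zinc with which insulin is packed in those granules, and UCN3 is a peptide secreted by mature β-cells that acts on neighbouring δ-cells.

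All values are the authors' mean TPM (a level per transcript length, scaled to the same total in every sample) over the replicates of a stage, so no spread between replicates can be given, no test was run, and it is not known which neighbours in an order of stages differ beyond their error. Differences between stages are log2 ratios of mean TPM + 1, and a gene is called higher or lower from 2-fold on that scale. The depth behind each value cannot be read from TPM. In bulk RNA, fewer cells of a type and less RNA per cell cannot be told apart.

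Abundant structural RNAs, such as those of the signal recognition particle, took between 31.8% (DE) and 50.9% (PH) of all TPM, and the TPM of every other gene is a share of what they leave. The study's methods name a ribosomal RNA depletion (RiboMinus) and the labels also a TruSeq Stranded mRNA kit, so how RNA was selected, on which this share depends, is not settled. Rescaling the stages by their median ratio moved the median log2 ratio of all names from 0.58 to 0.21 in DE against hESCs, from 0.45 to 0.23 in SC-β against PP, from 0.83 to 0.47 in SC-β against hESCs and from 0.59 to 0.19 in SC-β against PH, so ratios in these comparisons are to be read against these medians. The SC-β organoids are labelled as β-cells, and INS was present at 298 TPM, but GCG, the α-cell hormone, was at 2793 TPM, 9.37 times INS, and SST, the δ-cell hormone, at 203 TPM. MAFA, a transcription factor of mature β-cells, was at 0.401 TPM and IAPP, secreted with insulin, at 1.83 TPM. PDX1 and NKX6-1, regulators of β-cell identity, were at 1.57 and 5.37 TPM. The study itself measured the share of C-peptide-positive, glucagon-negative cells in these organoids by flow cytometry. That is protein counted by cell, whereas the values here are bulk RNA. Summed markers of other cell types varied too: in SC-β organoids 8 mesenchymal markers reached 1593 TPM against 167 TPM in PP, and 8 hepatic markers 1502 TPM against 198 TPM, of which TTR, also an islet gene, made up 1229 TPM. Of the 8 in either list, none was listed at 0 in SC-β organoids. Neuronal markers were highest in PH, at 1378 TPM against 247 TPM in SC-β organoids, and 6 endothelial markers in DE, at 199.9 against 6.67 TPM. VWF alone made up 191 TPM of the DE sum. Of the 4 endothelial markers at 1 TPM or more in DE or hESCs, 1 was higher in DE (VWF) and 2 were lower (TEK and KDR). Of all names, 28.2% were higher and 5.55% lower in that comparison.

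The members fell into 2 kinds by level. SLC2A1, SLC2A3, HK1 and HK2 were above 9 TPM at every stage, whereas SLC2A2, G6PC2, SLC30A8 and UCN3 were below 1 TPM at every stage before the last, and ABCC8 passed 1 TPM in PP. The number of members at 1 TPM or more was 4 in hESCs, DE and PGT, 5 in PP and PH, and 7 in SC-β organoids. G6PC2 and UCN3 did not reach 1 TPM at any stage. The summed level of the 9 was highest in PGT at 679.7 TPM and lowest in PP at 143 TPM, most of it from SLC2A3 and SLC2A1 in PGT.

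**Figure D1:**
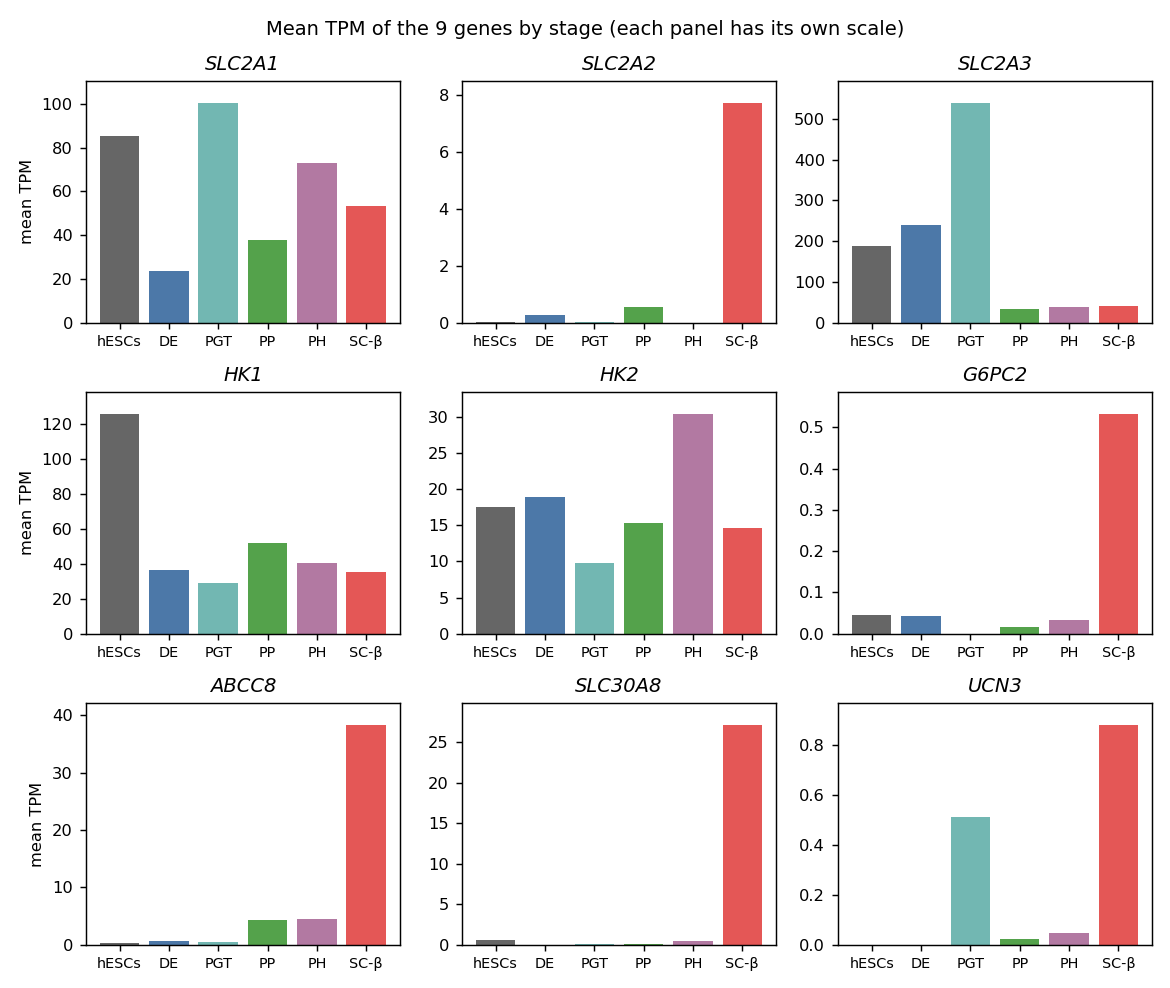
Bars give the authors' mean TPM of each of the 9 genes (vertical axis, a separate scale in each panel, from 0) at the 6 stages in the order of the table, with no error bars because the table holds means only. The bottom row and the panel of SLC2A2 are tallest in SC-β organoids, while SLC2A3 is tallest in PGT at 539 TPM and HK1 in hESCs at 125 TPM.

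The bases before the transcription start were read for the members that RefSeq promoter windows (GRCh38.p14) held, to set the sequences of the always-present genes beside those of the genes seen late. They matched 5 of the 9 members, SLC2A1, SLC2A2, HK1, HK2 and G6PC2. Those of SLC2A3, ABCC8, UCN3 and SLC30A8 were not matched. The 250 bases upstream of the start are shown 5′ to 3′ on the gene's strand for SLC2A1 (chr1:42958869-42959118, reverse strand), the first of the 2 HK2 starts (chr2:74833877-74834126, forward), SLC2A2 (chr3:171026721-171026970, reverse) and G6PC2 (chr2:168901041-168901290, forward). Capitals mark every match, on either strand, to the TATA box TATAAA, the CCAAT box CCAAT and the core ACGTG found in hypoxia-response elements and some E-boxes; in these windows no matches overlap.
SLC2A1: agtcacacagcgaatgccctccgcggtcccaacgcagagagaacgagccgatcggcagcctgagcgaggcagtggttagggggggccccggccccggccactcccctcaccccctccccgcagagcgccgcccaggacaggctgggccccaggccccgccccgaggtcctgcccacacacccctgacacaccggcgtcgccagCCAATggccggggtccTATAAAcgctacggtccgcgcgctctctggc
HK2: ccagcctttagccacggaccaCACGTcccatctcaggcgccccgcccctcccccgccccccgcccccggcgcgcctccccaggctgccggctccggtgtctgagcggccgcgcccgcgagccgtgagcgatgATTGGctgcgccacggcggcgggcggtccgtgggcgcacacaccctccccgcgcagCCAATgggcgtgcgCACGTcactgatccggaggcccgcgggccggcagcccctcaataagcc
SLC2A2: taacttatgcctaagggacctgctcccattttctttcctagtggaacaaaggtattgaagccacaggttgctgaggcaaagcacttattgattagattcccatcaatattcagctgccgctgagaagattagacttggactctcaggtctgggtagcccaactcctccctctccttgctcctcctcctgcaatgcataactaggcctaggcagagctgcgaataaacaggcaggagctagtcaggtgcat
G6PC2: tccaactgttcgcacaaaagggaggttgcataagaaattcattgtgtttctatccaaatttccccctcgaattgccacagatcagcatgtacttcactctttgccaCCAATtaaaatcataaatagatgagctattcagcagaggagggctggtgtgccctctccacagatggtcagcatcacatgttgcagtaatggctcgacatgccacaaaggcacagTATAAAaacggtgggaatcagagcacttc

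Of the windows shown, those of SLC2A1 and HK2 were rich in G and C, and those of SLC2A2 and G6PC2 were not. SLC2A1 had 72.4% G + C with 24 CpG pairs and HK2 76.8% with 34, against a median of 58.0% and 11 CpG over 35116 windows of the same length. SLC2A2 had 48.8% with 2 CpG and G6PC2 44.8% with 4. The 7 starts listed for HK1 ranged from 45.6% to 74.0%, and the table does not say which of them was used. TATAAA began 31 bases upstream of the SLC2A1 start and 29 bases upstream of the G6PC2 start, and 10.7% of all windows hold it. CCAAT was found in the windows shown for SLC2A1 and G6PC2 and at 2 places in that of HK2, and in 32.0% of all windows. ACGTG was found at 2 places in the HK2 window, both on the opposite strand, and in 18.5% of all windows. SLC2A2 held none of the 3 motifs in this window. A match is a description of letters and not a binding site.

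Among the glucose transporters, SLC2A3 (GLUT3, the high-affinity transporter best known from neurons and early embryos) had the widest range. Its mean level was 188 TPM in hESCs, 239.5 TPM in DE, 539 TPM in PGT, 33.1 TPM in PP, 37.9 TPM in PH and 40.8 TPM in SC-β organoids. It stood at 3 early stages far above the 3 later ones, and in PGT it ranked 132 among the 19675 names at 1 TPM or more. The log2 ratio was 1.17 in PGT against DE and -3.99 in PP against PGT, where the median of all names was -0.10. From hESCs to SC-β organoids it was -2.18. Its ratio of 0.35 in DE against hESCs was under 2-fold and became -0.14 after rescaling.

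SLC2A14 lies next to SLC2A3 on chromosome 12 and is a near-identical copy of it, so that short reads can be shared between them and both values are uncertain. SLC2A3 spans chr12:7919230-8019007 and SLC2A14 chr12:7812512-7891148, both on the reverse strand, with 28081 bases between them (GENCODE version 44; like all gene positions given here, on GRCh38, which is hg38, the genome to which the authors aligned). SLC2A14 was at 16.4 TPM in hESCs, 4.93 TPM in DE, 12 TPM in PGT, 0.891 TPM in PP, 0.517 TPM in PH and 0.539 TPM in SC-β organoids. It was lowest at the same late stages, but in DE against hESCs its log2 ratio was -1.55 where that of SLC2A3 was 0.35. SLC2A3 exceeded it between 11.5 times (hESCs) and 75.7 times (SC-β organoids).

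SLC2A1 (GLUT1, the widely expressed basal transporter; chr1:42925353-42958893, reverse strand) alternated from stage to stage. Its mean level was 85.4 TPM in hESCs, 23.6 TPM in DE, 100.4 TPM in PGT, 37.8 TPM in PP, 73.0 TPM in PH and 53.2 TPM in SC-β organoids. It was lower in DE than in hESCs (log2 ratio -1.81), higher in PGT than in DE (2.05) and lower in PP than in PGT (-1.38). The ratios of PH to PP, 0.93, and of SC-β to PP, 0.48, were under 2-fold. After rescaling PH was 2-fold above PP, at 1.15, and SC-β 2-fold below hESCs, at -1.19 in place of -0.67.

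SLC2A2 (GLUT2, the low-affinity transporter of β-cells and hepatocytes; chr3:170996347-171026743, reverse strand) was at 0.0262 TPM in hESCs, 0.260 TPM in DE, 0.0294 TPM in PGT and 0.528 TPM in PP. It was listed at 0 in PH and reached 7.70 TPM in SC-β organoids, with 2.51 as the log2 ratio to PP and 0.45 as the median of all names. Markers of hepatocytes, which also use this transporter, were high in sum at 2 stages. The 8 hepatic markers summed to 1697 TPM in PGT, where SLC2A2 was near 0, and to 1502 TPM in SC-β organoids. TTR, also an islet gene, made up 943 and 1229 TPM of these sums. In SC-β against PP, 2 of the 8 were higher, TTR and ALB, the liver's main secreted protein (39.3 against 0.649 TPM). The other 6 were under 2-fold, where 20.7% of all names were higher and 1.84% lower. All 8 hepatic markers were at 1 TPM or more in both PGT and SC-β organoids, and their part in the SLC2A2 level was not tested.

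The make-up of transporter RNA changed with these levels. Of the summed TPM of the 14 SLC2A genes listed, SLC2A3 made up 56.0% in hESCs, 72% in DE and 75.6% in PGT, and 26.3%, 24.5% and 24.5% in PP, PH and SC-β organoids. SLC2A1 made up 30.1% in PP, 47.2% in PH and 31.9% in SC-β organoids, and SLC2A2 4.63% in the last. Among the other 11 transporters, 1 was at least 2-fold lower in DE than in hESCs (SLC2A14) and 1 higher (SLC2A10, 12 against 2.92 TPM), beside 5.55% and 28.2% of all names. In SC-β organoids against PP, 0 of the 7 at 1 TPM or more passed 2-fold in either direction, beside 20.7% of all names higher and 1.84% lower.

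**Figure D2:**
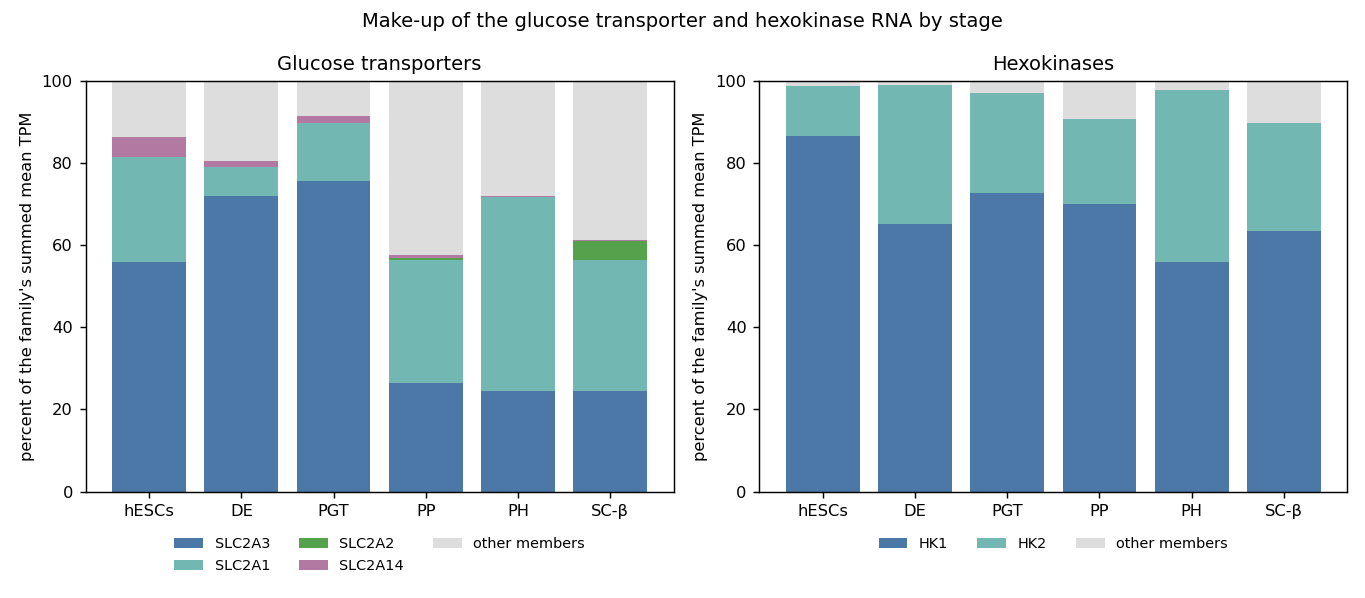
Stacked bars give each gene's percent of the family's summed mean TPM (vertical axis) at each stage, for the 14 SLC2A transporters on the left and the 5 hexokinase genes on the right, with HK1 and HK2 drawn and the rest joined. SLC2A3 takes over 50% of the transporter RNA up to PGT and at most 26.3% afterwards, and HK1 is the largest part of the hexokinase RNA at every stage, from 55.9% in PH to 86.6% in hESCs.

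HK1 (chr10:69269984-69401884, forward strand), the high-affinity hexokinase of most tissues and of low level in mature β-cells, was at 125 TPM in hESCs, 36.1 TPM in DE, 29.2 TPM in PGT, 52.0 TPM in PP, 40.5 TPM in PH and 35.4 TPM in SC-β organoids. The hESC level stood apart from the 5 others, which lay within 2-fold of each other. The log2 ratio was -1.77 in DE against hESCs and -1.80 in SC-β against hESCs, and under 2-fold in each of the other 5 comparisons. HK2 (chr2:74834127-74893359, forward strand), the hexokinase of muscle and fat that many cells induce under low oxygen, was at 17.5 TPM in hESCs, 18.9 TPM in DE, 9.73 TPM in PGT, 15.3 TPM in PP, 30.4 TPM in PH and 14.6 TPM in SC-β organoids. It was highest in PH, with a log2 ratio of 0.94 to PP, under 2-fold, and in SC-β against PH it was lower by just over 2-fold. After rescaling the ratios were 1.16 and -1.48.

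In SC-β organoids HK1 made up 63.6% and HK2 26.3% of the summed RNA of the 5 hexokinase genes listed. HK1 exceeded HK2 by 7.15 times in hESCs, 3.39 times in PP, 1.33 times in PH and 2.42 times in SC-β organoids. HKDC1, a hexokinase-like gene that ends 2431 bases before HK1 begins on the same strand, did not follow HK1: it was at 0.132 TPM in hESCs, 5.32 TPM in PP, 0 in PH and 1.97 TPM in SC-β organoids.

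G6PC2 (chr2:168901291-168910000, forward strand), the islet form of glucose-6-phosphatase, was near 0 throughout. Its level was 0.0447 TPM in hESCs, 0.0419 TPM in DE, 0 in PGT, 0.0169 TPM in PP, 0.0331 TPM in PH and 0.532 TPM in SC-β organoids. The SC-β level was the highest, but the log2 ratio to PP was 0.59 with a pseudocount of 1 TPM and 2.44 with 0.1 TPM, so whether it passed 2-fold depends on the pseudocount. GENCODE places SPC25, a kinetochore gene, over G6PC2 on the opposite strand, at 8.34 to 25.1 TPM over the stages. The labels name a strand-specific kit, but whether the counting used the strand is not given in the sources used here, so reads of SPC25 in G6PC2 cannot be told apart. G6PC3, the widely expressed phosphatase of the same reaction, held between 95% (SC-β organoids) and 100% (PGT) of the summed RNA of G6PC, G6PC2 and G6PC3, and the liver enzyme G6PC was at 0.408 TPM in SC-β organoids.

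ABCC8 (SUR1, the regulatory subunit of the KATP channel and the target of sulfonylurea drugs; chr11:17392498-17476894, reverse strand) was the first of the islet members to appear. Its mean level was 0.318 TPM in hESCs, 0.581 TPM in DE, 0.475 TPM in PGT, 4.27 TPM in PP, 4.54 TPM in PH and 38.3 TPM in SC-β organoids. It stood at 3 levels, with the first 3 stages below 1 TPM and PP and PH close together. The log2 ratio was 1.84 in PP against PGT, 2.90 in SC-β against PP and 4.90 in SC-β against hESCs, and 0.07 in PH against PP.

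KCNJ11, the pore of the same channel, lies 3166 bases from ABCC8 on the same strand and changed less in level. It was at 0.934 TPM in hESCs, 1.58 TPM in DE, 2.11 TPM in PGT, 2.64 TPM in PP, 1.24 TPM in PH and 6.56 TPM in SC-β organoids. Its log2 ratio of SC-β to PP was 1.05, against 2.90 for ABCC8. NCR3LG1, which overlaps KCNJ11 on the opposite strand, was at 0.249 to 5.26 TPM, so the same doubt about strand holds for KCNJ11. The channel is assembled from equal numbers of each subunit, and the ratio of ABCC8 to KCNJ11 RNA was 0.340 in hESCs, 0.225 in PGT, 1.62 in PP, 3.65 in PH and 5.84 in SC-β organoids. ABCC9, the receptor subunit of heart and muscle, did not exceed 1.27 TPM, and ABCC8 made up at least 86.9% of the summed RNA of ABCC8 and ABCC9 at every stage.

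SLC30A8 (ZnT8, the zinc transporter of the insulin granule) had the largest log2 ratio of the members in SC-β organoids against PP. Its mean level was 0.562 TPM in hESCs, 0.0255 TPM in DE, 0.0929 TPM in PGT, 0.110 TPM in PP, 0.451 TPM in PH and 27.1 TPM in SC-β organoids. The 5 earlier levels were all below 1 TPM, and the last was above them by a log2 ratio of 4.66 against PP and 4.17 against hESCs. In PP, where ABCC8, INS and CHGA were already present at 4.27, 6.93 and 215 TPM, SLC30A8 was not. Per 100 TPM of INS it stood at 1.59 TPM in PP, 6.58 TPM in PH and 9.10 TPM in SC-β organoids. The PP and PH values rest on SLC30A8 levels below 1 TPM, whose precision is not known, so no trend is read from them. GCG was at 2793 TPM in SC-β organoids, and which cells the SLC30A8 RNA came from was not tested. SLC30A8 made up 17.0% of the summed RNA of the 10 SLC30A zinc transporters listed in SC-β organoids and at most 0.627% elsewhere. Of the 8 others at 1 TPM or more in PP or SC-β organoids, 3 were higher in SC-β organoids than in PP, SLC30A1 (15.3 against 4.76 TPM), SLC30A2 (2.2 against 0.261 TPM) and SLC30A10 (1.92 against 0.193 TPM), and 0 were lower. Of all names, 20.7% were higher and 1.84% lower in that comparison. In GENCODE SLC30A8 spans chr8:116950273-117176714 on the forward strand.

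UCN3 (chr10:5364966-5374692, forward strand), a late marker of β-cell maturation, was listed at 0 in hESCs and DE and was at 0.513 TPM in PGT, 0.0249 TPM in PP, 0.0479 TPM in PH and 0.880 TPM in SC-β organoids. The PGT and SC-β levels stood above the rest, and neither reached 1 TPM. The log2 ratio of SC-β to PP was 0.88, and 2.97 with a pseudocount of 0.1 TPM. Of its family, CRH was at 6.12 TPM in SC-β organoids against 0.562 TPM in PP, UCN at 1.65 against 1.16 TPM and UCN2 at 0.654 against 0.239 TPM, and the receptors CRHR1 and CRHR2 were below 1 TPM at every stage.

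**Figure D3:**
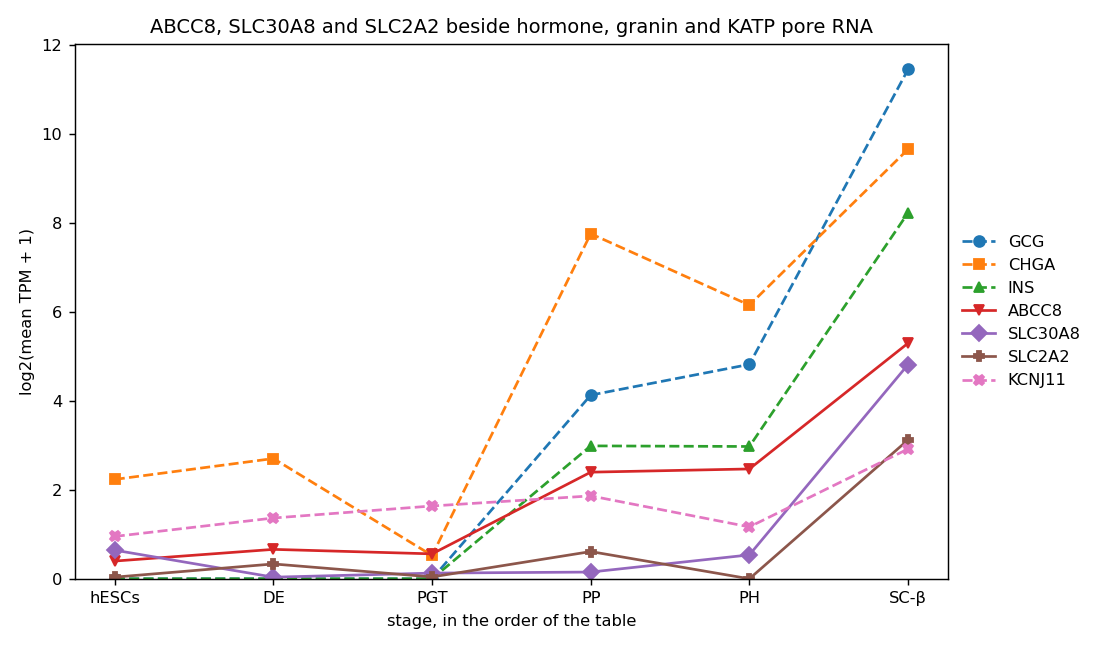
Points give log2(mean TPM + 1) (vertical axis) at the 6 stages, with solid lines for ABCC8, SLC30A8 and SLC2A2 and dashed lines for GCG, CHGA, INS and KCNJ11; lines only join the points of a gene. ABCC8, INS and GCG are below 1 TPM up to PGT and above it in PP and PH, at 4.27 TPM for ABCC8 in PP, whereas SLC30A8 and SLC2A2 are above 1 TPM in SC-β organoids alone, at 27.1 and 7.70 TPM.

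Set side by side, the members differed from step to step in number and direction. In DE against hESCs, 0 of the 4 members at 1 TPM or more in either stage were higher and 2 were lower (SLC2A1 and HK1), where 28.2% of all 22514 such names were higher and 5.55% lower; after rescaling, 60.5% of the called names in place of 83.6% were higher. In PGT against DE, 2 of 4 were higher (SLC2A1 and SLC2A3) and 0 lower, beside 4.94% and 10.6% of names. In PP against PGT, 1 of 5 was higher (ABCC8) and 2 lower (SLC2A1 and SLC2A3), beside 6.3% and 7.46%. In SC-β against PP, 3 of 7 were higher (SLC30A8, ABCC8 and SLC2A2) and 0 lower, beside 20.7% and 1.84%. ABCC8 in PP against PGT, and SLC30A8 and SLC2A2 in SC-β against PP, were below 1 TPM in the earlier stage. They entered these counts only through the stage where they were high, so they could not have been called lower.

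Over the whole course, in SC-β against hESCs, the same 3 of 7 were higher and 2 were lower (SLC2A3 and HK1), beside 42.4% and 7.08% of names, so that higher levels at the last stage were common in the table. The 3 higher members were below 1 TPM in hESCs and entered the count only through SC-β organoids, so they could not have been called lower. Of the called names 85.7% were higher, and 69.1% after rescaling. In PH against PP, 0 of 5 passed 2-fold in either direction, beside 11.5% higher and 12.8% lower. After rescaling SLC2A1 and HK2 were higher, and the share of called names that were higher moved from 47.3% to 60.2%. In SC-β against PH, 3 of 7 were higher (SLC30A8, SLC2A2 and ABCC8, of which SLC2A2 is listed at 0 in PH) and 1 lower (HK2), beside 28.1% and 4.6%, and the share of called names that were higher moved from 85.9% to 66.0%. SLC30A8 and SLC2A2 were below 1 TPM in PH and entered this count, too, only through SC-β organoids. PH also differed from PP in its cell markers: 8 neuronal markers summed to 1378 TPM against 156 TPM, with none listed at 0, 8 mesenchymal markers to 905 against 167 TPM, and 4 endoderm markers to 1.68 against 24.6 TPM, with 1 listed at 0. The part of these cells in the PH levels of SLC2A1 and HK2 was not tested.

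**Figure D4:**
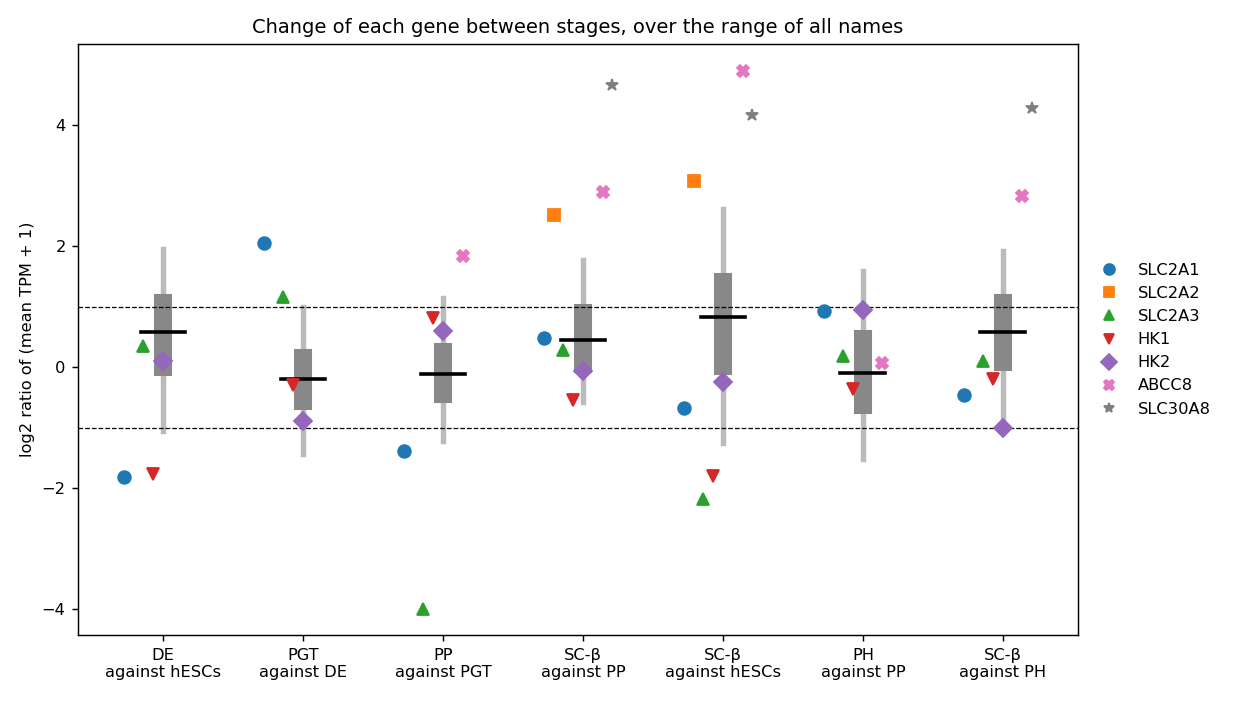
Each symbol is a member's log2 ratio of mean TPM + 1 (vertical axis) in the comparison named below it, for members at 1 TPM or more in either stage and not listed at 0 in the second; behind them the black bar is the median of all names, the thick bar their middle 50% and the thin bar their middle 90%, and dashed lines mark 2-fold. SLC2A3 lies lowest in PP against PGT at -3.99, and SLC30A8 and ABCC8 lie above the middle 90% of names in the 3 comparisons of SC-β organoids.

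The rest of the pathway was followed in lists of its steps. Of 19 genes of glycolysis and lactate, 12 were at least 2-fold lower in SC-β organoids than in hESCs and 1 was higher, with a median log2 ratio of -1.25 where that of all names was 0.83. Of all names, 7.08% were lower and 42.4% higher in that comparison. The largest decreases were those of ALDOC (8.59 against 57.3 TPM), PGAM1 (71.1 against 395 TPM) and PFKP (31.2 against 104 TPM). Mature β-cells keep the lactate transporter SLC16A1 and the lactate dehydrogenase LDHA low. SLC16A1 was at 155 TPM in hESCs, 64.9 TPM in PP and 64.5 TPM in the organoids, and LDHA at 250, 121 and 122 TPM. In PH, 4 of the 18 at 1 TPM or more were higher than in PP, PFKFB3 (61.4 against 11 TPM), SLC16A3 (13.1 against 2.38 TPM), PFKP and ENO2. The 3 lower were SLC16A1 (19.0 against 64.9 TPM), LDHB (323 against 875 TPM) and PKM (234 against 561 TPM). LDHA was at 120 TPM in PH and 121 TPM in PP. Of all names, 11.5% were higher and 12.8% lower in PH against PP.

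Of 11 genes of the KATP channel and calcium entry other than ABCC8, 7 were higher in SC-β organoids than in PP and 0 lower, with a median log2 ratio of 1.43 against 0.45 for all names. Of all names, 20.7% were higher and 1.84% lower in that comparison. The calcium channel pores CACNA1C (19.4 against 2.12 TPM), CACNA1D (13.4 against 1.57 TPM) and CACNA1A (10.6 against 1.96 TPM) led the list. Of 13 exocytosis genes, 5 were higher and 0 lower in SC-β organoids than in PP, where 20.7% of all names were higher, led by SYT4. SYT4, a synaptotagmin, was at 1.40 TPM in PP, 29.5 TPM in PH and 13.2 TPM in SC-β organoids. In PH against PP 6 of the 13 were higher and 1 lower, beside 11.5% and 12.8% of all names. In SC-β against PH 3 were higher and 4 lower, beside 28.1% and 4.6%, with a median log2 ratio of -0.38 against 0.59 for all names. The exocytosis genes also serve neurons, and the 8 neuronal markers summed to 156 TPM in PP, 1378 TPM in PH and 247 TPM in SC-β organoids. Their part in these levels was not tested. In SC-β against PP, 12 of 14 genes of granule cargo and processing were higher and 0 lower, beside 20.7% and 1.84% of all names. Their median log2 ratio was 1.66 against 0.45 for all names. The log2 ratio was 7.32 for GCG, 5.24 for INS and 2.56 for the prohormone convertase PCSK1 (8.52 against 0.610 TPM). Of 11 regulators of β-cell and islet identity, 10 were at 1 TPM or more, 5 were higher, among them NEUROD1 with a log2 ratio of 2.09, and 0 lower, beside the same shares of all names. All 8 mesenchymal markers were higher in the same comparison, with a median of 3.06, and their part in these levels was not tested.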

How the data were processed

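RNA-seq was carried out by the authors on 12 samples, 2 at each of 6 stages. Per the labels and the study's methods, reads were aligned to hg38 with HISAT2 (version 2.2.0), and TPM per gene was calculated with StringTie (version 2.1.6). The deposited table holds the authors' mean TPM of each stage under 49085 names (50451 entries; entries with the same name were summed). The annotation behind it is not given in the sources used here. The samples of other assays are not analysed here.

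Log2 ratios of mean TPM + 1 were computed for 7 pairs of stages over names at 1 TPM or more in either stage, and 2-fold was the threshold. Replicates are averaged, so no test was possible; edgeR, which the authors used, needs read counts of each replicate. The members and gene lists were chosen with earlier results of these data known. The genes named are all members, at most 4 of each list with the largest ratios or partners of a member, and, for likeness, the 3 names with the highest Pearson's r over the stages among those at 10 TPM or more in some stage, without clone names. Other genes of the lists were named after their values were seen. Python 3.11.15, numpy 2.4.6, pandas 2.3.3 and matplotlib 3.10.9 were used. The script was tested on simulated data. Alternatives were another pseudocount, 2 other scalings, a lower threshold and no filter. Promoter windows are RefSeq's. Some genes that the naming rule covers are not reported here.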

Additional observations from a re-analysis of the deposited data

How the results depend on the processing

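The 14 counts of members and the 63 log2 ratios of members were recomputed with a pseudocount of 0.1 TPM, median-ratio rescaling over 13938 names, totals without mitochondrial and the 100 most abundant names, a 1.5-fold threshold, the highest entry of a repeated name, and no filter on low values. Counts this small can move from 2 to 3 or from 3 to 4 and still lie within 1.5 times. Without the abundant names, for example, 4 members in place of 3 were higher in SC-β against PP. Of 84 counts, 77 stayed within 1.5 times. The others came with a 1.5-fold threshold (1 lower in PGT against DE in place of 0, 3 higher in PP against PGT in place of 1, and 2 higher in PH against PP in place of 0), without the abundant names (2 higher in PP against PGT, and 2 higher and 1 lower in PH against PP in place of 0) and with rescaling (2 higher in PH against PP). Of 378 log2 ratios, 39 passed the threshold that they had not passed before, many of them of members below 1 TPM with the smaller pseudocount, 0 lost it, and 0 past it changed sign. Under 2-fold, 3 changed sign with rescaling and 2 without the abundant names, those of SLC2A3 and HK2. The highest entry could not change a member, each having 1 entry, and the filter could not remove a called gene. A lower threshold could not take away a call or change a sign. No paired analysis was possible because each deposited column is a mean over replicates, so none could be left out either. Values below 1 TPM have no known precision.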

Other observations

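The genes whose pattern was most like that of a member were sought by Pearson's r of log2(mean TPM + 1) over the 6 stages, as a description, among 12848 names at 10 TPM or more in some stage (12849 for SLC2A2). The coefficient compares the shape and not the size of a change, and stages that share a high or low value raise it. For ABCC8 the nearest were GCG (0.998), INS (0.998) and TRIM29 (0.997), and 10 names had r of 0.99 or more. For SLC30A8 they were TYRP1 (0.996), a melanosome protein at 49.1 TPM in SC-β organoids and 0.386 TPM or less before, CSTA (0.995) and MYBPC1 (0.993), with 12 names at 0.99 or more. For SLC2A2 they were LARGE-AS1 (0.998), PYGM (0.997), the muscle glycogen phosphorylase at 189 TPM in SC-β organoids against 4.34 TPM in PP, and CYP1A1 (0.995), a cytochrome P450 at 65.9 against 1.07 TPM, with 8 names at 0.99 or more.

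The names most like HK1 included PSAT1 (0.985) and INSIG1 (0.983). INSIG1, a regulator of sterol synthesis, was at 98.8 TPM in hESCs and between 13.3 and 24.4 TPM elsewhere. PSAT1, an enzyme of serine synthesis, was at 244 TPM in hESCs and between 28.8 and 63.8 TPM elsewhere. HK2 was most like BSCL2 (0.99), WRB (0.989) and GPM6B (0.981), which were also highest in PH and lowest in PGT. SLC2A1 was most like EIF4A2 (0.986), FBXW11 (0.945) and ATP8B2 (0.944), and SLC2A3 most like ATMIN (0.984), EIF4BP7 (0.973) and ZNF639 (0.971), which changed far less in size: EIF4A2 lay between 169.8 and 235 TPM, and ATMIN between 36.3 and 53.4 TPM. No name reached 0.99 for SLC2A1, SLC2A3 or HK1, and 1 did for HK2.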
